A study of Mus musculus with 6 samples.

Results

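The cyclins of the cell cycle, with the retinoblastoma gene Rb1 and the transcription factor gene E2f1, were followed by bulk poly(A) RNA-seq in mouse embryonic stem cells (mESCs) that overexpressed Rbbp4 or Rbbp7. The 10 genes were Ccne1, Ccne2, Ccnd1, Ccnd2, Ccnd3, Ccna2, Ccnb1, Ccnb2, Rb1 and E2f1, of 55401 genes in each table. The others stand for their roles in the cycle, and Ccne2 was chosen by its measured values, since its level was low in the Rbbp4-overexpressing libraries. The levels of all 10 genes in Rbbp4-overexpressing against control cells, and every level of Ccne2, are therefore given as a description without a test. All cells were 46C mESCs, cultured in serum with LIF, Chir99021 and PD0325901 and without further treatment. By the study's methods, the lines made for biotin tagging first received the biotin ligase BirA by lentivirus with blasticidin selection. They then received a second lentivirus with puromycin selection, which carried the FLAG-Avitag alone in the control, FLAG-Avitag-Rbbp4 in Rbbp4 OE or FLAG-Avitag-Rbbp7 in Rbbp7 OE. The labels call these a biotin tag alone, biotin-Rbbp4 and biotin-Rbbp7, and the control titles read 46C_ctrl. The methods do not name the lines behind these libraries, so the match of groups to lines is taken from the labels. The promoter that drove the transgenes and whether the lines were clones or pools are not given in the sources used here, and the endogenous genes were left in place. Each group had 2 libraries. Nothing states that replicates came from separate cultures, so p-values measure only the spread between these libraries.

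Cyclins are the regulatory subunits of cyclin-dependent kinases (CDKs). D-type cyclins partner CDK4 and CDK6 and start the phosphorylation of the retinoblastoma protein, E-type cyclins partner CDK2 at the entry into S phase, cyclin A acts in S and G2, and B-type cyclins partner CDK1 in mitosis. The retinoblastoma protein holds E2F factors inactive until it is phosphorylated, and E2F factors then drive genes of DNA replication. Embryonic stem cells cycle fast, have a short G1 phase and keep E-type cyclin activity high through most of the cycle. RBBP4 and RBBP7 are histone-binding proteins that were first isolated by their binding to the retinoblastoma protein.

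The overexpressed genes matched the labels. Rbbp4 measured 146.02 and 147.00 TPM (a length-scaled share of the transcripts in a library) in control and 269.97 and 271.20 TPM in Rbbp4 OE. Rbbp7 measured 238.55 and 237.14 TPM in the control libraries and 724.74 and 748.06 TPM in those of Rbbp7 OE. The summed level of 8 mESC markers was 7621 to 7875 TPM in the control libraries, 8299 to 8573 TPM in those of Rbbp4 OE and 8258 to 8472 TPM in those of Rbbp7 OE, with all 8 genes detected. Dppa5a and Pou5f1 carried the higher sums, and the members went different ways in Rbbp4 OE against control: Pou5f1 rose by 0.25 on the log2 scale (limma adjusted p = 0.0334), while Nanog fell by 0.23 (limma adjusted p = 0.0393) and Tfcp2l1 by 0.52 (limma adjusted p = 0.0330). Markers of other cells were low or mixed. The sum of 6 fibroblast markers was 6.89 to 8.21, 10.73 to 13.02 and 10.81 to 18.18 TPM in the 3 groups, with Fap listed at 0 throughout. Among these markers only Thy1 passed in Rbbp4 OE against control, as higher (limma adjusted p under 0.05). That of 5 primitive endoderm markers was 0.83 to 0.84, 1.2 to 2.46 and 1.1 to 1.62 TPM. That of 6 trophoblast markers was 35.37 to 38.09, 45.05 to 45.98 and 43.11 to 45.12 TPM, with Elf5 at 0.04 TPM at most. Its members also differed, since Tfap2c rose by 0.44 in Rbbp4 OE (limma adjusted p = 0.0385) while Cdx2 had a log2 difference of -0.52 (limma adjusted p = 0.102). That of 4 neural markers was 98.02 to 99.99, 114.8 to 115.8 and 90.59 to 92.17 TPM, nearly all of it Tubb3, with Neurog2 listed at 0 throughout. The part of these markers in the differences below was not tested.

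Ccne1 and Ccne2 encode the paralogous cyclins E1 and E2. Ccne1 lies on the minus strand of chromosome 7 from 38097984 to 38107534 and Ccne2 on the plus strand of chromosome 4 from 11191351 to 11204779 (GRCm38). Their coding sequences were 62.4% identical over 1183 aligned bases, and their longest shared run was 18 bases. The 60-base stretch of their alignment with the most identical bases is shown because the finding turns on telling these genes apart. It spans coding bases 557 to 616 of Ccne1 and 554 to 613 of Ccne2, read from the GENCODE transcripts, and the 11 bases that differ are in capitals.
Ccne1: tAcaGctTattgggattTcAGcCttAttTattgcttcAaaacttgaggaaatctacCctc
Ccne2: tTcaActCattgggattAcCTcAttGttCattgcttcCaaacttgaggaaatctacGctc
The other 49 bases of the stretch are identical.

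Ccne2 was the member whose group means lay farthest apart on the log2(TPM + 1) scale among the 9 that passed the filter on low values. It measured 8.18 and 12.00 TPM in the control libraries, 1.49 and 1.62 TPM in those of Rbbp4 OE and 5.17 and 4.77 TPM in those of Rbbp7 OE. The groups did not overlap, with control highest, Rbbp7 OE in between and Rbbp4 OE lowest. The mean of 1.555 ± 0.0919 TPM (SD, n = 2) in Rbbp4 OE was 0.154 of the control mean of 10.09 ± 2.701 TPM (SD, n = 2), and the mean of 4.97 ± 0.283 TPM (SD, n = 2) in Rbbp7 OE was 0.493 of it. On the log2(TPM + 1) scale, which understates changes of low genes, the differences from control were -2.10 in Rbbp4 OE and -0.87 in Rbbp7 OE. The difference between Rbbp4 OE and Rbbp7 OE was -1.22 on that scale. The size for Rbbp4 OE against control ranged from -1.19 with 5 TPM added to -2.60 with 0.1 TPM added. In bulk cells, fewer cells in the phase that carries a transcript and less RNA per cell cannot be told apart.

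Ints8, which encodes a subunit of the Integrator complex, overlaps Ccne2 on the opposite strand over 5622 bases, and 137 bases (11.3%) of the Ccne2 coding sequence lie in an Ints8 transcript. The sources used here do not say whether the libraries kept strand, so reads of the shared bases cannot be told apart. Ints8 measured 24.78 and 34.41 TPM in the control libraries, 30.64 and 30.66 TPM in those of Rbbp4 OE and 34.68 and 31.54 TPM in those of Rbbp7 OE. Each overexpression group overlapped the controls, and both Rbbp4 OE libraries lay below those of Rbbp7 OE.

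Ccne1 was far more abundant and varied less. Its level was 181.39 and 180.81 TPM in the control libraries, 160.13 and 157.70 TPM in those of Rbbp4 OE and 162.96 and 165.49 TPM in those of Rbbp7 OE. All 4 overexpression libraries lay below both controls, and the differences were small. The log2 difference was -0.19 for Rbbp4 OE against control, -0.14 ± 0.05 (SE) for Rbbp7 OE against control (limma adjusted p = 0.247) and -0.05 ± 0.05 for Rbbp4 OE against Rbbp7 OE (limma adjusted p = 0.624). Neither test passed the threshold of an adjusted p of 0.05. With libraries scaled by median-of-ratios, the first difference was -0.08 and the last 0.05.

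Ccne1 transcripts outnumbered those of Ccne2 in every library, since TPM is scaled by length and can be compared between genes. The ratio of Ccne1 to Ccne2 TPM was 22.17 and 15.07 in the control libraries, 107.5 and 97.35 in those of Rbbp4 OE and 31.52 and 34.69 in those of Rbbp7 OE. Ccne2 made up 4.32% and 6.22% of E-type cyclin TPM in the control libraries, 0.922% and 1.02% in those of Rbbp4 OE and 3.08% and 2.80% in those of Rbbp7 OE. The summed E-type level was 189.6 and 192.8 TPM in the control libraries, 161.6 and 159.3 TPM in those of Rbbp4 OE and 168.1 and 170.3 TPM in those of Rbbp7 OE. The sum was thus set almost wholly by Ccne1 in all 6 libraries.

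**Figure D1:**
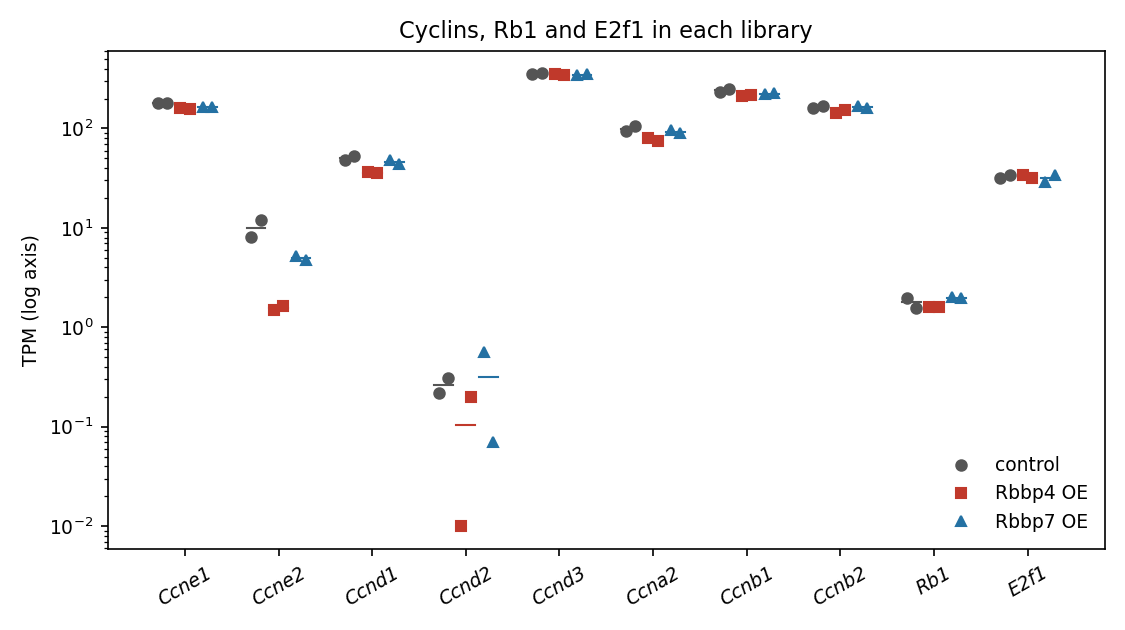
TPM of the 10 genes in each library on a log axis (points: the 2 libraries of a group, lines: group means). Ccne2 is at 1.49 and 1.62 TPM in Rbbp4 OE, below the controls at 8.18 and 12.00 TPM, while Ccne1 stays between 157.70 and 181.39 TPM.

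The 5 genes whose log2 levels were most like those of Ccne2 over the 6 libraries were taken from 397 other genes whose group means spanned at least 1 on the log2 scale and reached at least 5 TPM. They were Rpa1 (Pearson r = 0.997), Pdpk1 (r = 0.997), Ogfod1 (r = 0.995), Wdr76 (r = 0.995) and Pir (r = 0.992). These values describe likeness in 6 libraries that fall into 3 groups, and the genes share the libraries and their scaling. Rpa1, which encodes the large subunit of the single-strand DNA binding protein RPA, measured 214.36 and 252.89 TPM in the control libraries, 110.28 and 110.36 TPM in those of Rbbp4 OE and 165.07 and 170.45 TPM in those of Rbbp7 OE. Pir, which encodes pirin, measured 13.08 and 15.66 TPM in the control libraries, 1.47 and 1.23 TPM in those of Rbbp4 OE and 6.31 and 6.27 TPM in those of Rbbp7 OE. Both had the order of Ccne2, with the second control highest. That order follows from how the 5 genes were picked and is no separate result. Pdpk1, a kinase upstream of AKT, went from a control mean of 14.58 TPM to 5.79 TPM in Rbbp4 OE and 10.55 TPM in Rbbp7 OE. Ogfod1, an oxygenase that acts on a ribosomal protein, went from 16.99 TPM to 6.79 and 12.45 TPM.

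**Figure D2:**
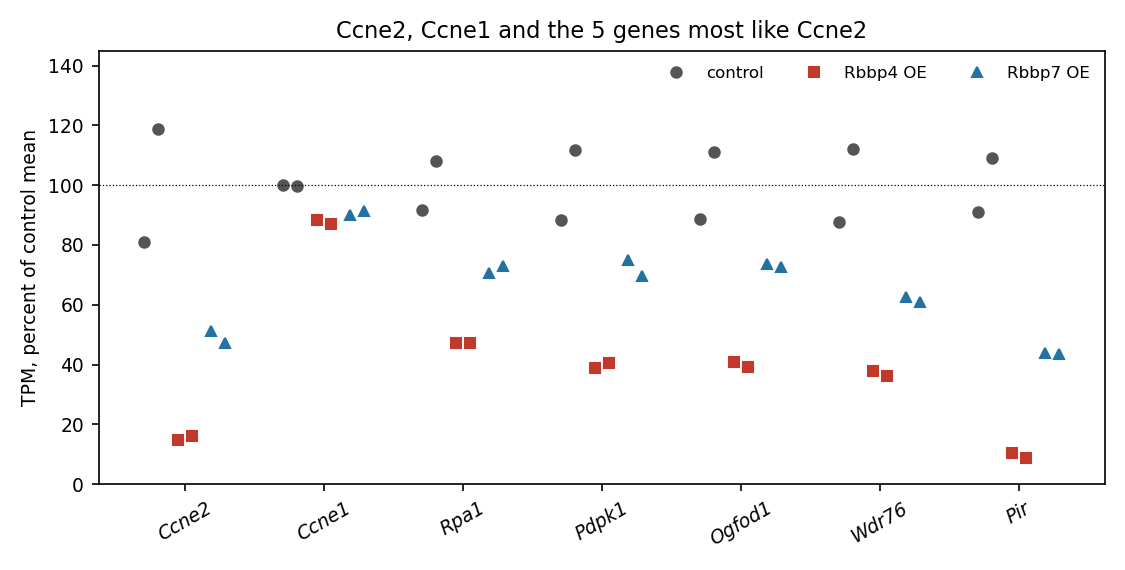
TPM of Ccne2, Ccne1 and the 5 genes most like Ccne2, each as a percent of its control mean (points: single libraries, dotted line: control mean). Ccne2 and the 5 genes picked for likeness to it over these libraries are lowest in Rbbp4 OE with Rbbp7 OE in between. Their shared order follows from that choice. Ccne1 lies near its control mean in all 6 libraries.

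D-type cyclins link growth signals to the cycle. Ccnd3 (chromosome 17, 47505051 to 47599691) was the most abundant of the 10 genes, at 352.47 and 358.44 TPM in the control libraries, 349.89 and 345.65 TPM in those of Rbbp4 OE and 344.08 and 349.34 TPM in those of Rbbp7 OE. Its lowest and highest libraries thus differed by little. The log2 difference was -0.04 ± 0.04 for Rbbp7 OE against control (limma adjusted p = 0.744) and 0.00 ± 0.04 for Rbbp4 OE against Rbbp7 OE (limma adjusted p = 0.969). For Rbbp4 OE against control it was -0.03, or 0.08 with median-of-ratios scaling. A processed pseudogene, Ccnd3-ps, is 96.3% identical to the Ccnd3 coding sequence, so their reads may be split. Ccnd3-ps was listed at 0.67 TPM at most in any library.

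Ccnd1 (chromosome 7, 144929931 to 144939925) encodes cyclin D1. It measured 47.90 and 52.78 TPM in the control libraries, 36.24 and 35.84 TPM in those of Rbbp4 OE and 48.07 and 44.08 TPM in those of Rbbp7 OE. Both Rbbp4 OE libraries lay below all 4 others, while Rbbp7 OE overlapped control. Against control, the log2 difference was -0.47 in Rbbp4 OE (-0.36 with median-of-ratios scaling), and Rbbp7 OE gave -0.12 ± 0.08 (limma adjusted p = 0.531). Rbbp4 OE against Rbbp7 OE gave -0.34 ± 0.08, which did not pass (limma adjusted p = 0.135, unadjusted p = 0.00598). The share of Ccnd1 in D-type cyclin TPM was 11.96% and 12.83% in control, 9.39% in both Rbbp4 OE libraries and 12.24% and 11.2% in Rbbp7 OE. Lto1, at 5.46 to 10.85 TPM, overlaps Ccnd1 on the opposite strand over 1771 bases.

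Ccnd2 (chromosome 6, 127125162 to 127152193), the cyclin D2 gene, was close to absent from these cells. It measured 0.22 and 0.31 TPM in the control libraries, 0.01 and 0.20 TPM in those of Rbbp4 OE and 0.56 and 0.07 TPM in those of Rbbp7 OE. It was the one member below the filter of a mean of 0.5 TPM, so 9 of the 10 genes were kept, and no fold is given for it. Coding identity among the D-type cyclins was 71.4% for Ccnd1 with Ccnd2, 66.6% for Ccnd1 with Ccnd3 and 68.8% for Ccnd2 with Ccnd3.

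Ccna2 (chromosome 3, 36564865 to 36572150) encodes cyclin A2, the A-type cyclin of dividing somatic cells. It measured 93.60 and 105.25 TPM in the control libraries, 80.96 and 74.61 TPM in those of Rbbp4 OE and 95.54 and 90.86 TPM in those of Rbbp7 OE. Both Rbbp4 OE libraries were again below the other 4, and Rbbp7 OE overlapped control. The log2 difference from control was -0.35 in Rbbp4 OE (-0.24 with median-of-ratios scaling), and Rbbp7 OE gave -0.09 ± 0.08 (limma adjusted p = 0.654). The direct comparison of Rbbp4 OE with Rbbp7 OE gave -0.26 ± 0.08 and did not pass (limma adjusted p = 0.188, unadjusted p = 0.0193), and was -0.16 with median-of-ratios scaling. The opposite-strand neighbour Exosc9, which shares 863 bases of the span, measured 43.7 to 52.02 TPM.

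B-type cyclins drive mitotic entry. Ccnb1 (chromosome 13, 100778650 to 100786570) measured 234.72 and 250.77 TPM in the control libraries, 212.46 and 216.52 TPM in those of Rbbp4 OE and 220.93 and 227.22 TPM in those of Rbbp7 OE. The groups did not overlap and followed the order of Ccne2, with a far smaller spread. The log2 difference from control was -0.18 in Rbbp4 OE (-0.07 with median-of-ratios scaling), and Rbbp7 OE gave -0.11 ± 0.05 (limma adjusted p = 0.380). Rbbp4 OE against Rbbp7 OE gave -0.06 ± 0.05 (limma adjusted p = 0.554), or 0.04 with median-of-ratios scaling. The annotation holds 5 pseudogenes at least 94.4% identical to Ccnb1 over the aligned bases, among them Ccnb1-ps at 99.2%. The 5 were listed at 0.77 TPM at most in any library. The level of Ccnb1 is uncertain to the extent that reads were split.

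Ccnb2 (chromosome 9, 70407692 to 70421547) measured 160.98 and 169.87 TPM in the control libraries, 143.22 and 154.11 TPM in those of Rbbp4 OE and 167.39 and 159.66 TPM in those of Rbbp7 OE. Rbbp7 OE overlapped control and Rbbp4 OE was lowest. The log2 difference was -0.15 for Rbbp4 OE against control, -0.02 ± 0.06 for Rbbp7 OE against control (limma adjusted p = 0.942) and -0.14 ± 0.06 for Rbbp4 OE against Rbbp7 OE (limma adjusted p = 0.305). With median-of-ratios scaling, the first of these was -0.05 and the last -0.04. The ratio of Ccnb1 to Ccnb2 stayed between 1.32 and 1.48 in the 6 libraries, and the summed B-type level was 395.7 and 420.6 TPM in the control libraries, 355.7 and 370.6 TPM in those of Rbbp4 OE and 388.3 and 386.9 TPM in those of Rbbp7 OE.

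RefSeq promoter windows of 300 bases (250 before the start and 50 after it, GRCm38.p6) were at hand for 5 of the 10 genes, namely Ccne1, Ccnd3, Ccnb1, Ccnb2 and E2f1. Both strands were searched for the CCAAT box (CCAAT), the cell cycle homology region (TTTGAA or TTCGAA) and the E2F site (TTTCCCGC, TTTCGCGC, TTTGCCGC or TTTGGCGC). Of 32851 windows, 37.4% held a CCAAT box, 19.2% a cell cycle homology region and 2.26% an E2F site. The windows of the B-type cyclin genes are shown because they held most of the matches, which are in capitals. The part of these motifs in the levels of the genes was not tested. Ccnb1 is at chr13:100786437-100786736 and Ccnb2 at chr9:70421505-70421804, both read 5′ to 3′ on the minus strand.
Ccnb1: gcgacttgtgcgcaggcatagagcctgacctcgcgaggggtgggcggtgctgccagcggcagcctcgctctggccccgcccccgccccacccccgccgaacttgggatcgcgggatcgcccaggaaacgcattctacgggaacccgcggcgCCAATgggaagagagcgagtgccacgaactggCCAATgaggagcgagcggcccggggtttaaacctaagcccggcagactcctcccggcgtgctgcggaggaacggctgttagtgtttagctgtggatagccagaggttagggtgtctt
Ccnb2: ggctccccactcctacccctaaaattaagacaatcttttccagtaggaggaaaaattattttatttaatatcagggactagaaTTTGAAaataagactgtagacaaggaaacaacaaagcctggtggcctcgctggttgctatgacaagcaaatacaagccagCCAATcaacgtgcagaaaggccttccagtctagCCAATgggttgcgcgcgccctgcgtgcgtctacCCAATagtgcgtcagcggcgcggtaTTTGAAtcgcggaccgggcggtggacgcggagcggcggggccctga
The Ccnb1 window held 2 CCAAT boxes, which began at -99 and -67 from the start, and neither TTTGAA nor TTCGAA. Other spellings of the cell cycle homology region were not searched. The Ccnb2 window held 3 CCAAT boxes, at -87, -54 and -21, and 2 cell cycle homology regions, at -167 and 4. One of 2 Ccnd3 windows held a CCAAT box, and the Ccne1 window held none of the 3 motifs. The E2f1 window (chr2:154569377-154569676) also held none. It lies wholly inside the GENCODE span of E2f1, whose minus-strand start is at 154569892. Sequence before that start was therefore not searched for E2f1. A match is a run of letters and not a measured site.

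Rb1 (chromosome 14, 73183673 to 73325822) encodes the retinoblastoma protein. It was low, at 1.98 and 1.58 TPM in control, 1.61 TPM in both Rbbp4 OE libraries and 2.02 and 1.96 TPM in Rbbp7 OE. Control overlapped both other groups. The log2 difference was -0.09 for Rbbp4 OE against control, 0.11 ± 0.18 for Rbbp7 OE against control (limma adjusted p = 0.832) and -0.20 ± 0.18 for Rbbp4 OE against Rbbp7 OE (limma adjusted p = 0.586). The first was -0.02 with median-of-ratios scaling. Its neighbour Rcbtb2, at 5.72 to 9.29 TPM, overlaps it on the opposite strand and shares 107 coding bases.

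E2f1 (chromosome 2, 154559407 to 154569892) encodes an activating E2F factor. It measured 31.54 and 33.89 TPM in the control libraries, 34.15 and 31.70 TPM in those of Rbbp4 OE and 28.69 and 34.30 TPM in those of Rbbp7 OE. All 3 groups overlapped. The log2 difference was 0.01 for Rbbp4 OE against control, -0.06 ± 0.11 for Rbbp7 OE against control (limma adjusted p = 0.854) and 0.07 ± 0.11 for Rbbp4 OE against Rbbp7 OE (limma adjusted p = 0.773). With median-of-ratios scaling the first was 0.11 and the last 0.16. E2f1 transcripts were 14.2 to 21.45 times as abundant as those of Rb1.

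By mean TPM over the 6 libraries the order was Ccnd3 (350.0), Ccnb1 (227.1), Ccne1 (168.1), Ccnb2 (159.2), Ccna2 (90.1), Ccnd1 (44.2), E2f1 (32.4), Ccne2 (5.54), Rb1 (1.79) and Ccnd2 (0.228). Ccne1 and Ccnb2 overlapped in their libraries, and so did Ccne2 and Rb1, which were level in Rbbp4 OE. The other neighbours in this order did not overlap. The summed level of the 8 cyclins was 1079 and 1130 TPM in the control libraries, 984.4 and 986.2 TPM in those of Rbbp4 OE and 1045 and 1041 TPM in those of Rbbp7 OE.

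Of the 8 members tested (all but Ccne2 and Ccnd2), 0 passed an adjusted p of 0.05 in Rbbp7 OE against control, where 0.198% of the 14156 genes tested rose and 0.29% fell. In Rbbp4 OE against Rbbp7 OE 0 of 8 passed as well, beside 0.177% of genes that rose and 0.127% that fell. At an unadjusted p under 0.05, limma gave 1 and 2 of the 8, beside 15.4% and 19.0% of all genes tested. They were Ccne1 in the first comparison and Ccnd1 and Ccna2 in the second, all lower. The median log2 difference of the 8 genes was -0.17 in Rbbp4 OE against control, -0.07 in Rbbp7 OE against control and -0.10 in Rbbp4 OE against Rbbp7 OE. Over all genes tested it was -0.08, -0.00 and -0.08. With median-of-ratios scaling, the medians of the 8 were -0.06, -0.07 and -0.00 and those of all genes 0.01, 0.00 and 0.00.

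Libraries that do not overlap were common in this design and carry little weight for a single gene. Every library of one group lay below every library of the other for 37.1% of genes in Rbbp4 OE against control, 23.4% in Rbbp7 OE against control and 38.6% in Rbbp4 OE against Rbbp7 OE. The members that did so in the first comparison were all but Rb1 and E2f1. They include Ccne2, which was chosen by its level there, and Ccnd2, which was below the filter and so outside the 37.1%. Both comparisons with control share the control libraries.

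**Figure D3:**
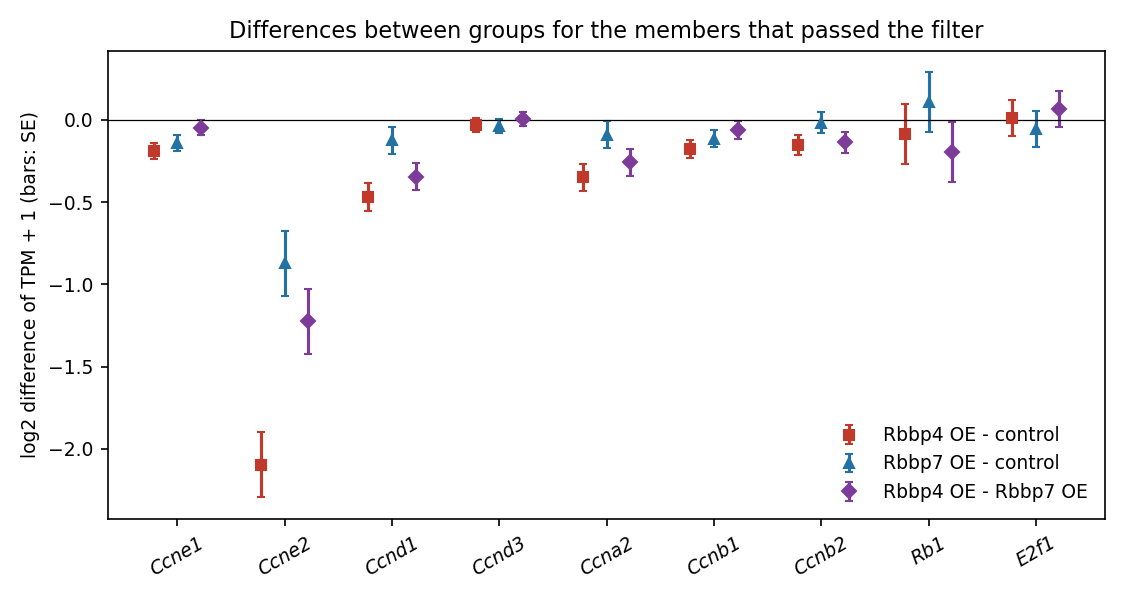
Log2 differences of TPM + 1 between groups for the 9 members that passed the filter (points: fitted differences, bars: SE from limma). Ccne2 stands apart at -2.10, -0.87 and -1.22, and every other member lies between -0.47 and 0.11.

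The regulators that act with these genes were taken as 47 kinase subunits, kinase inhibitors, phosphatases, pocket proteins, E2F factors, ubiquitin ligase parts and MuvB complex genes, all of which passed the filter. In Rbbp4 OE against control 6 fell and 1 rose, beside 8.07% of all genes that fell and 3.29% that rose. With median-of-ratios scaling 4 fell and 4 rose, beside 712 that fell and 716 that rose of all 14156 genes tested. Their median log2 difference was -0.15 against -0.08 over all genes, or -0.04 against 0.01 with that scaling. In Rbbp7 OE against control only E2f4 passed, and in Rbbp4 OE against Rbbp7 OE 0 of 47 passed (11 at an unadjusted p under 0.05, beside 19.0% of all genes). The count of 7 did not fall without control replicate 1. It was far lower without any 1 of the other libraries, and so was the count over all genes. Each such fit left 1 library in a group, and the Rbbp7 OE libraries enter through the shared spread.

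E2f4 encodes an E2F factor that acts mostly as a repressor with the pocket proteins. It measured 210.92 and 211.27 TPM in the control libraries, 141.39 and 140.26 TPM in those of Rbbp4 OE and 156.24 and 161.84 TPM in those of Rbbp7 OE. The groups did not overlap. E2f4 fell in Rbbp4 OE by 0.58 on the log2 scale (limma adjusted p = 0.00552) and in Rbbp7 OE by 0.41 (limma adjusted p = 0.0426). The second call was lost with median-of-ratios scaling (limma adjusted p = 0.0753). It was also lost without any 1 of the 6 libraries, where fewer genes passed over all genes too. Among the settings run at that threshold, the first was lost only without Rbbp4 OE replicate 2. Rbl1, the pocket protein p107, measured 8.15 and 9.10 TPM in the control libraries, 7.75 and 6.71 TPM in those of Rbbp4 OE and 9.65 and 7.14 TPM in those of Rbbp7 OE, and did not pass in any comparison.

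Cdkn1b encodes p27, an inhibitor of cyclin E and CDK2. It measured 22.37 and 29.17 TPM in the control libraries, 12.67 and 14.27 TPM in those of Rbbp4 OE and 19.09 and 21.99 TPM in those of Rbbp7 OE. Cdkn1b fell by 0.88 in Rbbp4 OE (limma adjusted p = 0.0231), a call kept without control replicate 1 and lost without any 1 of the other 5 libraries, and its difference of -0.31 in Rbbp7 OE did not pass (limma adjusted p = 0.405). The direct difference of -0.57 between Rbbp4 OE and Rbbp7 OE did not pass either (limma adjusted p = 0.151). Cdkn1a, the p21 inhibitor gene, measured 84.59 to 104.31 TPM over the 6 libraries and did not pass in any comparison as deposited. With median-of-ratios scaling it was higher in Rbbp4 OE than in control by 0.29 (limma adjusted p = 0.0366).

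Of the 4 CDK genes described here, Cdk1, Cdk2, Cdk4 and Cdk6, 0 passed in any comparison as deposited. Cdk2, the partner of cyclin E, measured 51.87 and 55.46 TPM in the control libraries, 45.58 and 42.22 TPM in those of Rbbp4 OE and 57.34 and 55.02 TPM in those of Rbbp7 OE, with a log2 difference of -0.28 in Rbbp4 OE against control (limma adjusted p = 0.0655). Cdk4 measured 447.81 and 427.17 TPM in control against 498.1 and 491.93 TPM in Rbbp4 OE (log2 difference 0.18, limma adjusted p = 0.0543). Cdk4 passed as higher in Rbbp4 OE without control replicate 1 (limma adjusted p = 0.0412) and with quantile normalization, and both Cdk2 and Cdk4 passed with a filter of at least 5 TPM. Cdk6 was uneven, with 3.37 and 17.88 TPM in the 2 Rbbp4 OE libraries and 17.10 and 24.18 TPM in the controls. Cdk1, the partner of the B-type cyclins, measured 388.76 to 432.86 TPM over the 6 libraries.

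Parts of the SCF ubiquitin ligase, which marks cyclin E and p27 for degradation, were among the genes that passed. Skp1a measured 292.05 and 286.25 TPM in the control libraries and 207.91 and 216.3 TPM in those of Rbbp4 OE, and fell by 0.45 (limma adjusted p = 0.00884). In Rbbp7 OE it measured 236.66 and 230.2 TPM, a log2 difference of -0.31 that did not pass (limma adjusted p = 0.0747). Cul1 fell by 0.46 in Rbbp4 OE (limma adjusted p = 0.0158), a call lost with median-of-ratios scaling. Its difference of -0.26 in Rbbp7 OE did not pass (limma adjusted p = 0.182). Fbxw7, the subunit that recognises cyclin E, measured 8.82 and 9.61 TPM in the control libraries, 13.74 and 11.7 TPM in those of Rbbp4 OE and 10.49 and 11.7 TPM in those of Rbbp7 OE, and did not pass (limma adjusted p = 0.0846 against control). It passed as higher in Rbbp4 OE with median-of-ratios scaling (log2 difference 0.52, limma adjusted p = 0.0489) and with quantile normalization. Wee1, the kinase that holds CDK1 inactive, fell by 0.54 in Rbbp4 OE (limma adjusted p = 0.0359). Its difference of -0.35 in Rbbp7 OE did not pass (limma adjusted p = 0.231).

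The MuvB complex binds cell cycle homology regions, and RBBP4 is itself one of its subunits. Lin54, its DNA-binding subunit, measured 8.44 and 9.76 TPM in the control libraries and 6.0 and 4.94 TPM in those of Rbbp4 OE, and fell by 0.64 (limma adjusted p = 0.0472). That call was lost with median-of-ratios and with quantile scaling and without any 1 of the 6 libraries. Lin9 measured 5.62 to 9.21 TPM over the 6 libraries and did not pass. Lin37, named after its values were seen, rose by 0.36 in Rbbp4 OE (limma adjusted p = 0.0481).

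The other cyclins were 15 genes, of which 13 passed the filter. In Rbbp4 OE against control 2 of 13 fell and 0 rose, beside 8.07% and 3.29% of all genes. The median log2 difference was -0.22 against -0.08 over all genes, or -0.11 against 0.01 with median-of-ratios scaling. Ccnt1, the cyclin of the elongation factor P-TEFb, fell by 0.68 (limma adjusted p = 0.0458). Ccny, a membrane-associated cyclin, fell by 0.69 (limma adjusted p = 0.0220). Both act outside the core cycle engine, and 1 of the 2 calls was left with either median-of-ratios or quantile scaling. The count of 2 did not fall without control replicate 1. It fell without any 1 of the other libraries, where far fewer genes passed over all genes too. In the other 2 comparisons 0 of 13 passed, with 0 at an unadjusted p under 0.05 for Rbbp7 OE against control and 4 for the direct comparison of the overexpressing cells, beside 15.4% and 19.0% of all genes.

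Genes that peak with the G1/S transition were taken as a list of 39, mostly of DNA replication and repair. Of these, 15 fell, 0 rose and 24 did not pass in Rbbp4 OE against control, beside 8.07% of all genes that fell and 3.29% that rose. The median log2 difference was -0.26 against -0.08 over all genes. With median-of-ratios scaling 9 fell and 0 rose, beside 712 that fell and 716 that rose of all 14156 genes tested. The medians were then -0.15 and 0.01. Those that fell as deposited included the replicative helicase genes Mcm4, Mcm5 and Mcm6, the primase gene Prim1 and the ribonucleotide reductase gene Rrm2. These were named after their values were seen. Of the same families, Mcm2 (log2 difference -0.20, limma adjusted p = 0.0535) and Rrm1 (0.04, limma adjusted p = 0.801) did not pass. At the study's threshold of an adjusted p of 0.01 with a fold over 2, where 0.311% of all genes were lower, 2 of the 39 were called. The count of 15 did not fall without control replicate 1. It was far lower without any 1 of the other libraries, and so was the count over all genes.

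Wdr76, a chromatin-associated WD repeat gene, was called at that threshold and was also among the genes most like Ccne2. It measured 19.00 and 24.26 TPM in the control libraries, 8.18 and 7.81 TPM in those of Rbbp4 OE and 13.53 and 13.15 TPM in those of Rbbp7 OE. The groups did not overlap, and Wdr76 fell by 1.32 in Rbbp4 OE (limma adjusted p = 0.00797). The call at the study's threshold was lost without any 1 of the 6 libraries. In those fits few or no genes were lower at that threshold over all genes, so the loss is not particular to Wdr76. In Rbbp7 OE its difference of -0.65 did not pass (limma adjusted p = 0.127).

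Gins2, a subunit of the replicative helicase, was the only G1/S gene to pass in Rbbp7 OE. It measured 125.99 and 113.93 TPM in the control libraries, 69.39 and 67.27 TPM in those of Rbbp4 OE and 69.17 and 72.09 TPM in those of Rbbp7 OE. Both overexpression groups lay below control and overlapped each other. Gins2 fell by 0.80 in Rbbp4 OE (limma adjusted p = 0.00577) and by 0.75 in Rbbp7 OE (limma adjusted p = 0.0289). The call in Rbbp7 OE was lost with median-of-ratios scaling (limma adjusted p = 0.0544). It was also lost without any 1 library, where fewer genes passed over all genes too. Usp1, a deubiquitinase of DNA repair, fell by 0.65 in Rbbp4 OE (limma adjusted p = 0.0458), a call lost with median-of-ratios scaling (limma adjusted p = 0.0511) and without any 1 library but control replicate 1, while its difference in Rbbp7 OE was 0.23 (limma adjusted p = 0.507). In Rbbp4 OE against Rbbp7 OE 0 of 39 passed (18 at an unadjusted p under 0.05, beside 19.0% of all genes). For Rbbp7 OE against control, 10 of the 39 had an unadjusted limma p under 0.05, all lower, beside 15.4% of all genes. The list median there was -0.12 against -0.004 over all genes, or -0.11 against 0.001 with median-of-ratios scaling. The G1/S list thus lay below all genes in both overexpression groups.

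Genes of G2 and mitosis were taken as a list of 48. For Rbbp4 OE against control 13 fell, 3 rose and 32 did not pass, beside 8.07% of all genes that fell and 3.29% that rose. The median log2 difference was -0.21 against -0.08 over all genes. With median-of-ratios scaling 9 fell and 5 rose, beside 712 that fell and 716 that rose of all 14156 genes tested. The medians were then -0.10 and 0.01. The condensin gene Ncapd2 measured 265.47 and 262.95 TPM in the control libraries and 175.21 and 151.19 TPM in those of Rbbp4 OE, and fell by 0.70 (limma adjusted p = 0.00884). The histone chaperone gene Anp32e fell by 0.66 (limma adjusted p = 0.00869) and the spindle checkpoint kinase gene Bub1 by 0.58 (limma adjusted p = 0.0140). Ect2 and Pimreg, which act in cytokinesis and at metaphase, fell by 0.62 (limma adjusted p = 0.0220) and 0.42 (limma adjusted p = 0.0447). The call of Pimreg was lost with median-of-ratios scaling (limma adjusted p = 0.0554).

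The 3 mitotic genes that rose, named after their values were seen, were Ube2c by 0.20 (limma adjusted p = 0.0346), Tubb4b by 0.25 (limma adjusted p = 0.0179) and Psrc1 by 0.29 (limma adjusted p = 0.0347). Ube2c is the ubiquitin-conjugating enzyme that delivers cyclin B to degradation. For Rbbp7 OE against control and for the direct comparison of the overexpressing cells 0 of 48 passed (14 and 17 at an unadjusted p under 0.05, beside 15.4% and 19.0% of all genes). The kinetochore gene Ndc80 had a log2 difference of 0.30 in Rbbp7 OE against control (limma adjusted p = 0.194). The count of 16 in Rbbp4 OE did not fall without control replicate 1. It was far lower without any 1 of the other libraries, and so was the count over all genes.

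**Figure D4:**
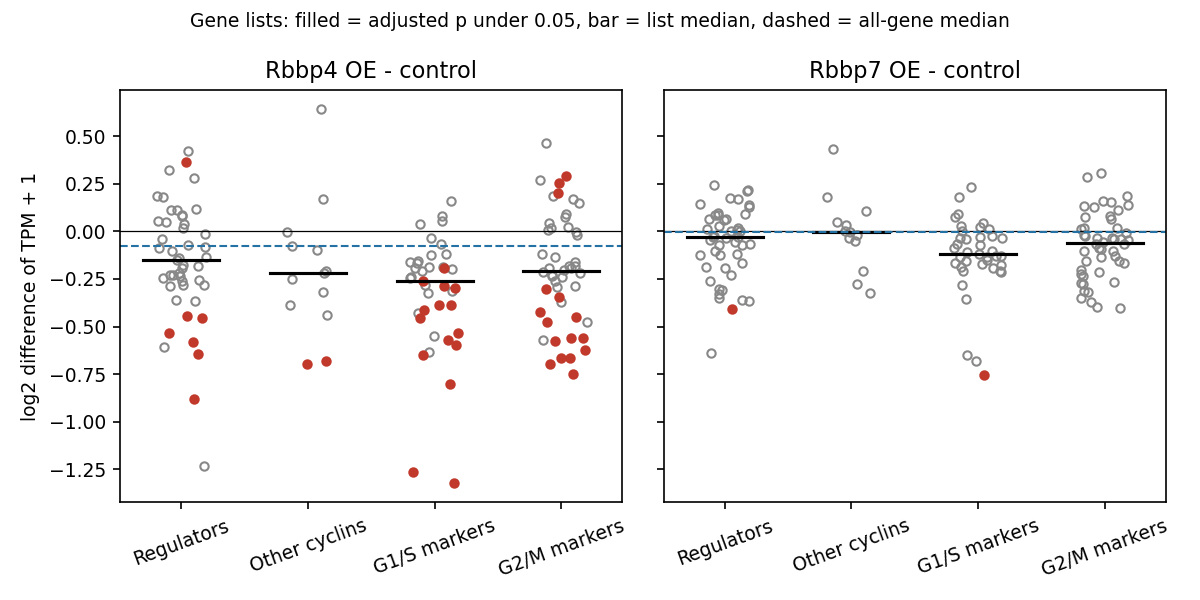
Log2 differences of TPM + 1 for the genes of 4 lists in Rbbp4 OE and in Rbbp7 OE against control (points: genes, filled where the limma adjusted p is under 0.05, bars: list medians, dashed line: median of all genes). In Rbbp4 OE the medians of the 4 lists lie between -0.26 and -0.15, below the median of all genes at -0.08. In Rbbp7 OE they lie between -0.12 and -0.01, beside a median of all genes at -0.004, and only E2f4 and Gins2 are filled.

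The split of calls over all genes in Rbbp4 OE against control moved with the scaling. It was 466 higher and 1143 lower (29.0% higher) as deposited and 716 higher and 712 lower (50.1% higher) with median-of-ratios scaling. For Rbbp4 OE against Rbbp7 OE it was 25 and 18 (58.1% higher) as deposited and 21 and 8 (72.4% higher) with that scaling.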

How the data were processed

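RNA was sequenced from 6 libraries in 3 groups of 2. Per the study's methods, the authors used Trim_galore for trimming, STAR for alignment to mm10 and RSEM for quantification, and the deposited values are TPM per gene. TPM is scaled by transcript length and to a fixed total per library, so depth is unknown, no counting interval is given, and a rise of a few abundant genes lowers the rest. The study's test on counts could not be run on TPM. Of 55401 genes, 55141 matched GENCODE M21 (GRCm38) by identifier; the authors' annotation was a later release.

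Genes with a mean of at least 0.5 TPM (14156) were fitted in limma 3.58.1 (R 4.3.3, trend) as log2(TPM + 1), with all 3 groups in 1 fit, 3 residual degrees of freedom, two-sided moderated tests and Benjamini-Hochberg adjustment over all genes tested. A gene rose or fell at an adjusted p under 0.05. The fit was tested on simulated data. Coding sequences were compared with blastn 2.17.0 and Biopython 1.88.

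The members and gene lists were chosen with earlier results of these data known. The text names all members, Rbbp4 and Rbbp7, up to 8 regulators and other cyclins with the smallest adjusted p per comparison among those that passed, 10 regulators whatever their values (the kinases Cdk1, Cdk2, Cdk4 and Cdk6, then Cdkn1a, Cdkn1b, Fbxw7, Rbl1, E2f4 and Lin9), the 3 G1/S and 3 G2/M genes with the smallest adjusted p per comparison, and the 5 genes most like Ccne2. 1 gene that this rule names is not reported here. Alternatives changed the pseudocount, filter, scaling, threshold, samples in the fit, replicate block and each library in turn.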

Additional observations from a re-analysis of the deposited data

Results flagged for a closer look

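By the direct limma test, Rbbp4 OE and Rbbp7 OE differed for the overexpressed genes themselves and for no tested member or named list gene. Ccne2, Rpa1, Pdpk1, Ogfod1 and Pir were left out of this check, so it says nothing of them. The log2 difference of Rbbp4 OE from Rbbp7 OE was 0.91 for Rbbp4 (limma adjusted p = 0.00192), and -1.79 for Rbbp7 (limma adjusted p = 8.31e-05). With 2 libraries a group, libraries were not tested for standing apart within their group.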

How the results depend on the processing

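In Rbbp4 OE against control, the counts of regulators, other cyclins, G1/S genes and G2/M genes that passed (7, 2, 15 and 16) were 3, 0, 5 and 7 with no filter, 2, 0, 3 and 0 when only the 2 groups compared were fitted, and 0, 0, 2 and 0 at the study's threshold. With median-of-ratios scaling they were 8, 1, 9 and 14, with quantile normalization 9, 1, 9 and 16, and with a pseudocount of 5 they were 5, 1, 12 and 15. Without any 1 library but control replicate 1 they fell, and so did the count over all genes. The replicate numbers did not pair the libraries, since same-numbered libraries deviated from their group means with correlations of -0.03, 0.03 and -0.03 across genes. With a replicate block the counts were 4, 1, 8 and 12. In Rbbp7 OE against control, the 1 regulator and 1 G1/S gene became 2 and 2 with a mean of at least 5 TPM. The counts were 0 and 0 with no filter, median-of-ratios scaling, the replicate block, the fit of 2 groups or the study's threshold. Neither call was kept without any 1 library, where fewer genes passed over all genes too. The causes were not tested.

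Differences that changed sign were small. With median-of-ratios scaling, Rbbp4 OE against Rbbp7 OE gave 0.0516 for Ccne1 and 0.0361 for Ccnb1. With quantile normalization, Rbbp7 OE against control gave 0.004 for Rbbp4 and 0.0043 for Ect2. Without 1 library, Rbbp7 OE against control ranged from -0.055 to 0.0221 for Ccnb2, -0.182 to 0.0672 for E2f1, -0.151 to 0.105 for Ect2 and -0.0009 to 0.469 for Usp1. Rbbp4 OE against Rbbp7 OE then ranged from -0.0065 to 0.0153 for Ccnd3 and from -0.0583 to 0.191 for E2f1. The count of tested members that passed was 0 under every alternative in both comparisons.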
